A study of Mus musculus with 9 samples.

Results

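The baseline transcriptome of mouse bone-marrow-derived macrophages was described from the untreated wells of the study, which gave 3 of its 9 libraries. They were chosen by their label, which gives no antibody, and are called untreated 7, 8 and 9. The marrow came from the leg bones of healthy wild-type C57Bl/6 mice and was grown for 1 week with 10 ng/ml recombinant macrophage colony-stimulating factor (M-CSF). The cells were then rinsed free of M-CSF, and 50000 of them were kept in each well for 48 h, so the RNA describes macrophages without added growth factor. The other 6 libraries, from wells with 100 µg/ml of a PD-L1 or an isotype antibody, are not compared here. The labels do not tie the 3 wells to separate mice or cultures, so the spread between them may be technical.

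M-CSF binds the receptor encoded by Csf1r and drives marrow progenitors and monocytes to survive, divide and become macrophages. These cells live by engulfing and digesting particles, and are known for large lysosomes, lysozyme secretion, Fc and complement receptors, lipid and iron recycling, and the display of peptides on major histocompatibility complex (MHC) molecules. Marrow macrophages are a standard model of a resting macrophage, from which inflammatory or alternative activation is measured.

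Levels are given in ppm: the average coverage of a gene's exonic bases, per 1000000 of the coverage summed over all ranked genes of that library. The value is per length, so levels of different genes can be set side by side, and each is followed by its SD where a mean is given (n = 3). In all, 19797 gene symbols were ranked by their mean over the 3 libraries. The exonic reads behind the values were 23510751 in untreated 7, 29193594 in untreated 8 and 40041397 in untreated 9. For a gene of the median exon length of 2539 bases, 3 reads correspond to 0.114, 0.0863 and 0.063 ppm in these libraries, so levels below about that size were not measurable. These are bulk samples, in which fewer cells of a type and less RNA per cell cannot be told apart. No group is compared with another, so no test was made: a difference between genes is judged by whether their 3 libraries overlap.

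All 4 macrophage markers lay among the 100 highest genes of every library. Lyz2, the macrophage lysozyme that cuts bacterial cell walls, measured 23044, 29042 and 29205 ppm in untreated 7, 8 and 9. The gene lies at chr10:117277541-117282272 on the minus strand (GRCm38), and its mean of 27097 ± 3511 ppm put it at rank 1 of all genes. Cd68, a glycoprotein of the late endosome and lysosome membrane, lies on chromosome 11 and measured 2259, 2035 and 2026 ppm and ranked 43. Csf1r, the M-CSF receptor itself, lies on chromosome 18 and measured 1676, 1539 and 1478 ppm and ranked 62. Adgre1, which encodes the surface protein recognised as F4/80, lies at chr17:57358686-57483529 and measured 1100.3, 1329.9 and 1328 ppm and ranked 83. The order Lyz2, Cd68, Csf1r, Adgre1 held in each library, and no range of one marker overlapped the next. Without division by exon length it was another: Csf1r and Adgre1, at 2778 and 1870.2 reads per 1000000, exceeded Cd68 at 1203. The mean of Lyz2 was 12.9 times that of Cd68, while Cd68 was 1.35 times Csf1r and Csf1r 1.25 times Adgre1. Each marker did overlap the genes ranked next to it: Ftl1 below Lyz2, H2-Aa and Actg1 around Cd68, Npc2 and Ptms around Csf1r, and Rplp0 and Ccl5 around Adgre1. Their single ranks are therefore not resolved by 3 libraries.

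**Figure D1:**
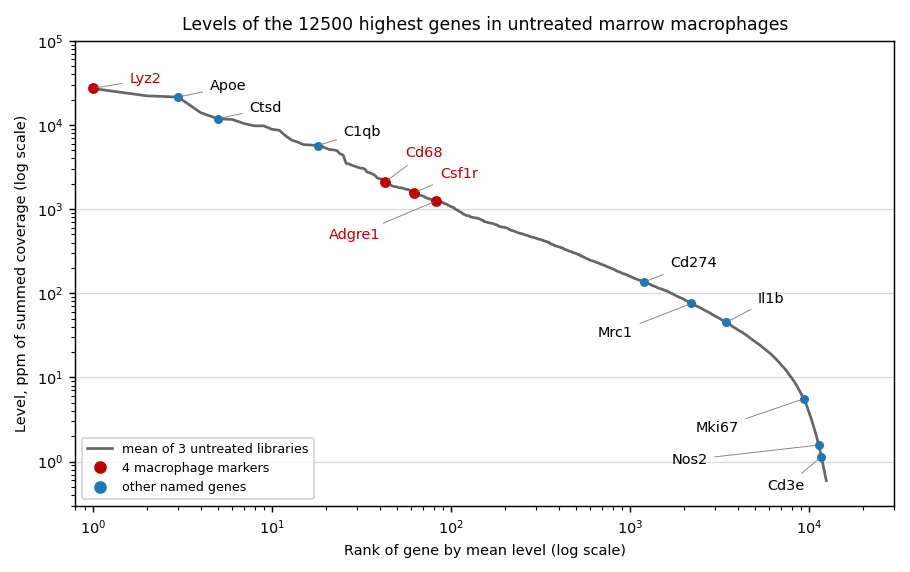
Mean level of each gene in ppm of summed coverage (vertical axis, log scale) against its rank (horizontal axis, log scale) in the 3 untreated libraries, for genes down to about 0.6 ppm. Red points are the 4 macrophage markers, at ranks 1 (Lyz2), 43 (Cd68), 62 (Csf1r) and 83 (Adgre1), and blue points are other genes named in the text.

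The transcriptome was concentrated in few genes. In every untreated library, 11460 genes reached 1 ppm (57.9% of those ranked), 7575 reached 10 ppm (38.3%), 1525 reached 100 ppm (7.7%) and 94 reached 1000 ppm (0.475%). The 10 highest genes of each library together held 14.7 ± 1.64% of its coverage and the 100 highest 36.6 ± 1.91%. To reach 50% of the coverage took 363, 291 and 288 genes in untreated 7, 8 and 9. At the other end, 7920 genes averaged under 1 ppm and together held 0.133% of the coverage. The median of all ranked genes was 4.1 ppm, and that of genes at or above 1 ppm in every library was 21.3 ppm. The higher classes had shorter transcripts: the median exon length was 1406 bases at 1000 ppm and above, against 2883 bases between 10 and 100 ppm. Over the 11460 genes, Spearman's rho across genes was -0.19 between level and exon length and 0.15 between level and the GC percent of the aligned reads. Genes are not independent replicates, and these values describe the libraries only.

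Iron storage, digestion, lipid transport, peptide display and actin accounted for many of the highest genes. Ftl1 and Fth1, the light and heavy chains of the iron store ferritin, held ranks 2 and 4. Ftl1 measured 23428, 22043 and 20982 ppm, and Fth1 14150, 13193 and 14589 ppm, so the light chain was the higher in each library on this scale. The Fth1 transcript kept was a noncoding RefSeq entry of 1511 exonic bases, against 970 for Ftl1. Its level and rank, and this order, may therefore depend on the transcript kept. In exonic reads Ftl1 exceeded Fth1 in untreated 7 and 8, but not in untreated 9 (381467 against 413185). Apoe, the apolipoprotein that macrophages secrete with cholesterol, ranked 3 on average but measured 8951 ppm in untreated 7 against 28884 and 26369 ppm in the other libraries. Ctsd (11819 ± 350 ppm, rank 5) encodes the aspartic protease of the lysosome, and Ctss (10373 ± 1129 ppm, rank 7) and Ctsb (6229 ± 517 ppm, rank 14) encode cysteine proteases of the same compartment. Psap, the precursor of proteins that help lysosomal enzymes reach lipids, ranked 11 with 8647, 8610.4 and 8658 ppm, which made it one of the steadiest genes. The MHC class I genes B2m, H2-D1 and H2-K1 ranked 8, 9 and 15. Tmsb4x, which holds actin monomers, ranked 10, Actb (actin) 13 and Pfn1 (profilin, which hands monomers to growing filaments) 27.

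Other places among the 30 highest went to genes of more varied roles. Ubb, a polyubiquitin gene, ranked 22, and Eef1a1, which brings aminoacyl-tRNA to the ribosome, ranked 17. Gpnmb, a membrane glycoprotein of melanosomes and lysosomes, ranked 16 (5798 ± 1330 ppm), and Lgals3, a galectin of macrophages, ranked 19 (5575 ± 467 ppm). C1qb and C1qc, chains of the first complement component, ranked 18 and 23, and Cd74, the invariant chain of MHC class II, ranked 21 (5096 ± 663 ppm). Cst3, a secreted cathepsin inhibitor, Itm2b, a small membrane protein, Ifitm3, an interferon-induced antiviral membrane protein, and Grn, the lysosomal protein progranulin, ranked 24, 25, 26 and 28. Some symbols were near copies of a neighbour: H2-L (rank 6) lies over H2-D1, Gm1821 (rank 20) over Ubb, and Atp6v0c-ps2 (rank 29) over the proton pump gene Atp6v0c (rank 30). Reads of these pairs cannot be told apart, and their levels are uncertain. In all, 8 of the 30 highest symbols overlapped another symbol's span, against 18.1% of all ranked symbols. The same limit touches B2m, Ctsb, Ctsz, Ctsw, Pltp, Apoc4, Irf5, H2-T23, H2-Oa, Ccl6, Cxcl16, Il1b, Vsir, Prdx1, Nox1, Hvcn1, Bcl2l1, Cd34 and Scpep1 below, whose spans partly overlap another symbol, since strand use in counting is not given in the sources used here.

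**Figure D2:**
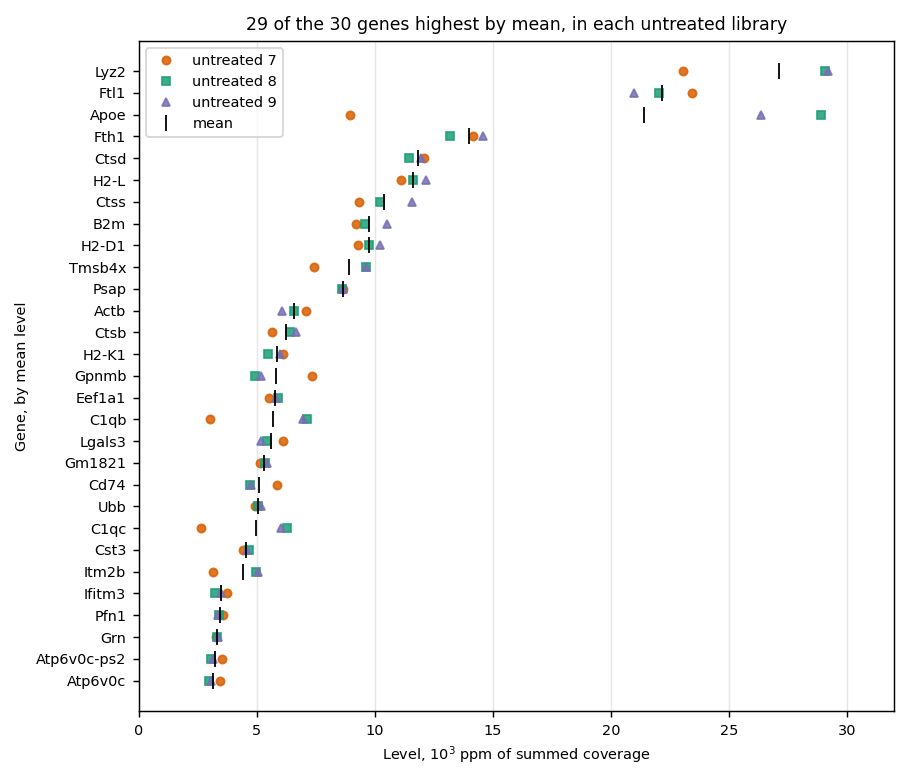
Level of 29 of the 30 highest genes in units of 1000 ppm of summed coverage (horizontal axis) in each untreated library, with genes ordered by mean and a vertical tick at the mean of the 3 libraries. Untreated 7 lies apart for Apoe (8951 ppm against 28884 and 26369 ppm), C1qb and C1qc, while the points of most other genes fall close together.

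A few of these genes are shown with the 250 bases before their start, since their promoters hold short motifs read by factors of this lineage. The windows are RefSeq's for GRCm38.p6, printed 5′ to 3′ on the gene's strand, and 12553 ranked genes had 1 such window. Capitals mark an exact match on either strand. The first is Ctsd at chr7:142387828-142388077, minus strand. The Ctsd transcript measured here starts at 142387870, within this window, so the last bases printed belong to it. The capitals are CACGTG, the E-box letters bound by the TFEB and MITF family, 245 and 98 bases before the start that the window takes, and nearer to that of the measured transcript.
Ctsd: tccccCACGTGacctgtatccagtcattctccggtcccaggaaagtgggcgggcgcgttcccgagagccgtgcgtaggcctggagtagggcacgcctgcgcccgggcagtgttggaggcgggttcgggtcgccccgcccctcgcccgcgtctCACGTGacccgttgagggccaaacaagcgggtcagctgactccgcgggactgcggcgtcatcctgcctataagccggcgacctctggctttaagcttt
The next is C1qc at chr4:136892915-136893164, minus strand, where the capitals are ACTTCCTC, the reverse complement of the PU.1 motif GAGGAAGT, 195 bases before the start.
C1qc: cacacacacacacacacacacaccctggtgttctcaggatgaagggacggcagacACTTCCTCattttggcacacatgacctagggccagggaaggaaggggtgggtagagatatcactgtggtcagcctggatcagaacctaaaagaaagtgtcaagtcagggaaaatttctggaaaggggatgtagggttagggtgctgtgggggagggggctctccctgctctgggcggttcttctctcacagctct
The last is Cd68 at chr11:69666171-69666420, minus strand, where the capitals are TGAGTCA, the reverse complement of the AP-1 motif TGACTCA, 149 and 24 bases before the start.
Cd68: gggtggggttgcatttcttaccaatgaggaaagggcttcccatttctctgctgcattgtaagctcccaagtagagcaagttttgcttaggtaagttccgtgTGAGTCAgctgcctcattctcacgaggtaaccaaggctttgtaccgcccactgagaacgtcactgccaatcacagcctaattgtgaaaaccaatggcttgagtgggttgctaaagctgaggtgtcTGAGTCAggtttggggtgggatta
CACGTG stood in 7.35% of the 12553 windows and in 13 of the 44 windows of genes from the 3 lysosomal lists described below (29.5%). Among the 63 windows of genes at 1000 ppm and above, GAGGAAGT or its complement stood in 4 (6.35%, against 2.47% of all), and TGACTCA in 1, that of Cd68 (1.59%, against 3.83%). TATAAA or its complement stood in 10 of the 63 (15.9%, against 9.72%) and GGGCGG or its complement in 32 (50.8%, against 48.3%). The shares of all windows include 5080 of genes under 1 ppm, with 14.9% for TATAAA and 30.7% for GGGCGG. Between 100 and 1000, 10 and 100, and 1 and 10 ppm, TATAAA stood in 7.99, 5.49 and 6.3%. GGGCGG stood there in 59.3, 63.7 and 55.4%, above its share at 1000 ppm and above. Of the lists described below, the PU.1 motif stood in 0 of 17 windows of macrophage and monocyte genes. It stood in 3 of 50 windows of cytosolic ribosomal protein genes (6%). The E-box and the AP-1 motif also stood in 0 of the 17 macrophage and monocyte windows. These sets are small, and the share at 1000 ppm and above does not tie the PU.1 motif to macrophage genes. All counts are matches of letters and show neither a bound site nor a cause of a level.

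Untreated 7 stood apart from the other untreated libraries, and its values are given separately where they matter. Across the 19797 genes, Pearson's r of log2(ppm + 1) was 0.9975 between untreated 8 and 9, and 0.9921 between untreated 7 and either of them. Of 7957 genes with a mean of at least 10 ppm, 165 differed at least 2-fold between untreated 7 and 8, 175 between 7 and 9, and 1 between 8 and 9. That last gene was Saa3, an acute-phase protein of macrophages, with 332, 362 and 764 ppm. Untreated 7 was at least 2-fold above both others in 99 genes (1.24%) and at least 2-fold below both in 26 (0.327%), and at least 1.5-fold above both in 504 (6.33%) and below both in 107 (1.34%). Untreated 8 was at least 2-fold above or below both others in 0 genes (0%), and untreated 9 above both in 1 (0.0126%) and below both in 0. In all, 215 genes (2.7%) had a 2-fold range, of which 1 was left without untreated 7. It was the least deep library, and its share of exonic reads among reads over gene spans was 68.9%, against 71.5% and 70.7% in untreated 8 and 9. What part these differences have in the gene levels was not tested.

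The genes with the largest ratios between libraries differed through untreated 7. Among the 3180 genes with a mean of at least 50 ppm, 70 (2.2%) differed at least 2-fold between the highest and lowest library, and untreated 7 was the highest for 48 and the lowest for 22. Saa3 is counted among the latter, but its range came from untreated 9. Id3, an inhibitor of helix-loop-helix transcription factors, had the largest ratio, with 329, 62.1 and 60.5 ppm. Next came Mrc1, the mannose receptor, with 22.3, 113 and 91.6 ppm, and C1qa, the third chain of the first complement component, with 548, 2480.1 and 2127 ppm. Acod1, the enzyme that makes itaconate, measured 182, 45.8 and 63.9 ppm, so it was high in untreated 7 where Mrc1 and C1qa were low. Selenop, a secreted selenium carrier, measured 1082, 3758 and 3422 ppm. H2-M2, a non-classical MHC class I gene, measured 235, 72.7 and 121 ppm, and Ly6a, the surface protein Sca-1, 1102, 346 and 380.1 ppm. With Apoe, these were the 8 largest ratios. Leaving untreated 7 out moved Apoe from 21402 to 27624 ppm, C1qa from 1718 to 2304 ppm and Mrc1 from 75.6 to 102 ppm, and lowered Id3 from 151 to 61.3 ppm and Acod1 from 97.0 to 54.8 ppm.

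The steadiest genes of the same 3180 were Scpep1, Acaa1a, Psap, Klc4 and Bcl7b. Scpep1, a lysosomal serine carboxypeptidase, measured 313.2, 313.4 and 314.1 ppm, and Acaa1a, a thiolase of peroxisomal fat breakdown, 114.9, 115.2 and 115.3 ppm. Klc4, a light chain of the motor protein kinesin, measured 62.9, 63.2 and 63.2 ppm. Bcl7b, a subunit of the SWI/SNF chromatin remodelling complex, measured 77.8, 77.4 and 77.9 ppm. The median coefficient of variation over the 3180 genes was 8.36%, and these 5 genes were chosen for being lowest among many, so their smallness is a description.

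**Figure D3:**
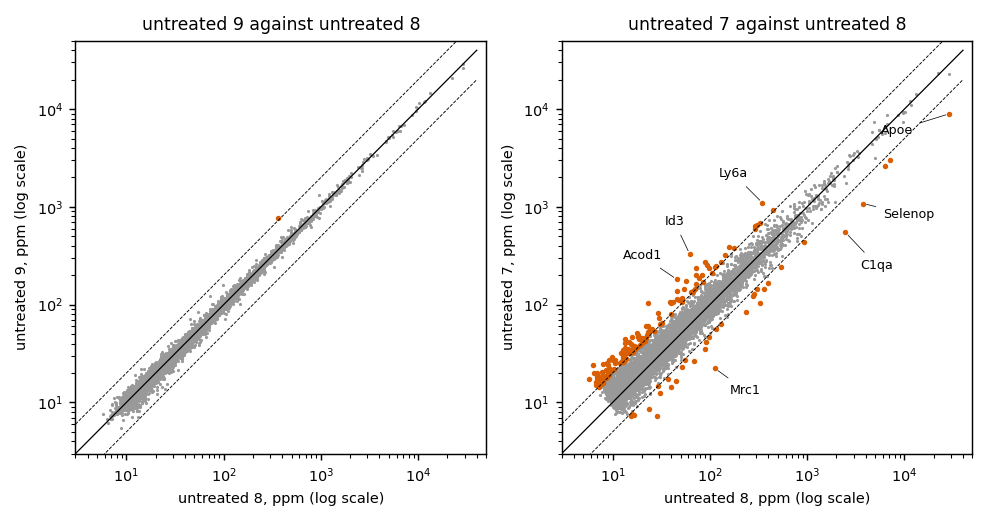
Levels in ppm (both axes log scale) of genes with a mean of at least 10 ppm, untreated 9 against untreated 8 (left) and untreated 7 against untreated 8 (right), with the diagonal solid and 2-fold differences dashed and in orange. The left panel has 1 orange gene and the right panel 165, with Apoe, C1qa, Selenop and Mrc1 low in untreated 7 and Id3, Acod1 and Ly6a high.

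Genes were grouped in lists by role, and each list is described by the number of members that reached 10 ppm in every library, to be read against the 38.3% of all ranked genes, and by its median level. Among 25 macrophage and monocyte genes, 20 reached 10 ppm and the median was 186 ppm (143 ppm without untreated 7). Besides Lgals3, the highest were Mpeg1, a pore-forming protein of phagosomes, at 3049, 2991 and 3195 ppm, and Tyrobp, the signalling adaptor of many activating receptors, at 2784, 2663 and 2682 ppm. Laptm5, a lysosomal membrane protein of blood cells, had a mean of 2575 ± 70.7 ppm. Fcer1g, the signalling chain of Fc receptors, measured 2324 ± 242 ppm, and Sirpa, the inhibitory receptor for CD47, 1561, 1509 and 1459 ppm. Genes of tissue macrophages spread widely. Siglec1, the sialic acid receptor CD169, was the middle member of the list with 215, 169 and 174 ppm. The lowest members were also of this kind: Timd4, a receptor for dying cells, was at or below 0.178 ppm in every library, Vsig4, a complement receptor, at or below 0.373 ppm, and Cd163, the haemoglobin scavenger receptor, at or below 1.4 ppm. Marks of young monocytes were present at moderate levels, with Ly6c2 at 269, 137 and 111 ppm and the chemokine receptor gene Ccr2 at 138, 117 and 96.3 ppm. Both were highest in untreated 7, as was Cx3cr1 (39.3, 15.5 and 11.2 ppm).

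Of 30 transcription factor genes of the lineage, 28 reached 10 ppm, with a median of 102 ppm (80.1 ppm without untreated 7). Spi1, which encodes the master regulator PU.1, was the highest with 1217, 1283 and 1214 ppm. Maf, a factor that keeps macrophages from dividing, measured 253, 415 and 385 ppm. Cebpb and Cebpa, factors of myeloid development, had means of 702 ± 155 and 634 ± 157 ppm. Maf, Cebpb and Cebpa were lowest in untreated 7. Of the 28 members with a mean of at least 10 ppm, 10 were lowest and 16 highest there. The shares of all such genes were 30.9% and 57.7%, so the list as a whole was not low in untreated 7. Irf5 (370 ± 70.9 ppm) and Irf8 (328 ± 16.6 ppm), interferon regulatory factors of myeloid cells, and Klf6 (355 ± 20.15 ppm), a zinc finger factor, followed. Tfeb and Tfe3, which switch on lysosomal genes, measured 146 ± 9.36 and 111.5 ± 5.27 ppm. Gata6, the factor of peritoneal macrophages, did not exceed 0.0334 ppm in any library.

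Receptor genes for M-CSF and GM-CSF were present, and the genes of their ligands were lower. After Csf1r, the next in the M-CSF list of 20 genes were Csf2ra, the alpha chain for GM-CSF (504.5 ± 72.0 ppm), the near-identical beta chains Csf2rb and Csf2rb2, whose reads may be shared (447 ± 204 and 428 ± 199 ppm), and Grb2, an adaptor of receptor kinases (412 ± 10.3 ppm). The gene for the ligand, Csf1, measured 29.2, 9.85 and 10.8 ppm, and the mean ratio of Csf1r to Csf1 was 117 ± 52.4. Csf2 and Csf3, the genes for GM-CSF and G-CSF, stayed at or below 0.241 ppm in each library, and Il34, the second ligand of the receptor, at or below 0.264 ppm. In this list 10 genes reached 10 ppm, and 10 of the 11 with a mean of at least 10 ppm were highest in untreated 7, where 57.7% of all such genes were.

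The digestive apparatus was present throughout. Of 16 genes for cathepsins and related proteases, 14 reached 10 ppm, and together they held 3.62 ± 0.185% of the coverage. After Ctsd, Ctss and Ctsb came Ctsz, a cysteine carboxypeptidase (2996 ± 370 ppm), Lgmn, which cuts after asparagine (1116, 1654 and 1593 ppm), and Ctsl (1068, 1421 and 1369 ppm). Lgmn and Ctsl were lower in untreated 7 than in both other libraries, as were 11 of the 14 members with a mean of at least 10 ppm, against 30.9% of all such genes. Ctse, of non-lysosomal compartments, and Ctsw, of cytotoxic lymphocytes, were the members under 10 ppm, at 7.56 ± 3.06 and 0.634 ± 0.473 ppm. All 32 lysosomal hydrolases and membrane proteins reached 10 ppm, with a median of 183 ppm. Psap and Grn led this list, followed by Lamp1, the main glycoprotein of the lysosome membrane (1771 ± 104 ppm), Npc2, which hands cholesterol out of the lysosome (1609 ± 128 ppm), and Hexa, a subunit of beta-hexosaminidase (1199 ± 124 ppm). All 18 proton pump genes reached it too, the lowest being Atp6v0a2 at 32.1, 24.1 and 25.3 ppm. Their median was 270 ppm, with Atp6v0c (3144 ± 246 ppm, shared with its pseudogene copy), Atp6v0b (612 ± 46.5 ppm) and Atp6v1f (549.7 ± 35.3 ppm) the highest.

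Lipid genes were led by Apoe and differed between libraries more than the lysosomal genes. The 30 genes held 2.54% of the coverage in untreated 7 and 4.41% and 4.15% in untreated 8 and 9, and 25 reached 10 ppm. Gpnmb came next, followed by Trem2, a lipid-sensing receptor, at 1870.1, 1912 and 1862 ppm. Plin2, the coat protein of lipid droplets, measured 2048, 1707 and 1614.5 ppm, and Pltp, which moves phospholipid between lipoproteins, 1110.4, 1925 and 1793 ppm. Apoe and Pltp were low and Gpnmb and Plin2 high in untreated 7, so the list had no common direction. Lpl, the lipase of lipoprotein triglyceride, measured 1095 ± 137 ppm. Among the genes under 10 ppm were Apoc1 and Apoc4, neighbours of Apoe, at 3.70 ± 1.39 ppm and at or below 0.324 ppm, Dgat2 and Mgll, enzymes of triglyceride making and breakdown, and Ch25h, which makes 25-hydroxycholesterol. In the iron and haem list of 19 genes, 17 reached 10 ppm. After the ferritins came Pcbp1, an iron chaperone that loads ferritin (610.2 ± 56.6 ppm), Hmox1, which opens the haem ring (365 ± 27.4 ppm), Trf, the iron carrier transferrin (166, 394.5 and 373.5 ppm), and Slc11a1, a metal pump of the phagosome (295 ± 20.0 ppm). Slc40a1, the iron exporter ferroportin, measured 46.8, 98.6 and 95.9 ppm, and like Trf was over 2-fold lower in untreated 7 than in both others.

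Genes of complement and engulfment were abundant, and the highest encode chains of the first complement component, which are not receptors. Among 21 complement and phagocyte receptor genes, 18 reached 10 ppm and the median was 365 ppm, while the sum was 1.24% of the coverage in untreated 7 and 2.37% and 2.33% in untreated 8 and 9. C1qb measured 3011, 7108 and 6945 ppm and C1qc 2645, 6257 and 6023 ppm. Their ratio was 1.14 ± 0.00933, so these chains kept one proportion although untreated 7 lay more than 2-fold below the others, while the ratio of C1qb to C1qa was 5.49 in untreated 7 and 2.87 and 3.27 in the others. Below Fcer1g and C1qa came C3ar1, the receptor for C3a (805 ± 60.9 ppm), and Fcgr3, a low-affinity activating Fc receptor, at 442, 931 and 978.6 ppm. Fcgr1, the high-affinity Fc receptor, measured 650.4 ± 88.7 ppm, and Cfp, properdin, which stabilises the alternative pathway, 447, 786 and 764 ppm. In 12 of the 18 members with a mean of at least 10 ppm, untreated 7 was the lowest, against 30.9% of all such genes. C3 went the other way with 244, 112 and 128 ppm. C2 and Cfd, proteases of the classical and alternative pathways, were at or below 0.936 ppm.

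Sensors of microbes were present at lower levels. Of 31 genes, 26 reached 10 ppm and the median was 50.7 ppm. Cd14, which passes lipopolysaccharide to Tlr4, was the highest with 742, 891 and 882 ppm. Ly86, partner of an inhibitory relative of Tlr4, measured 144, 359 and 408 ppm. Tlr13, a mouse receptor for bacterial ribosomal RNA, was the highest Toll-like receptor gene (225 ± 9.37 ppm), followed by Tlr8 (199.7 ± 25.3 ppm) and Tlr2, for lipoproteins (155 ± 3.42 ppm). The 3 libraries of Tlr13 did not overlap those of Tlr2, but overlapped those of Tlr8. Tlr4, the lipopolysaccharide receptor, was among the steadiest with 53.2, 54.1 and 54.3 ppm. Tlr5, for flagellin, and Tlr11 and Tlr12, for profilin of protozoa, were the lowest, at or below 1.84 ppm in each library. Myd88, the adaptor of most of these receptors, measured 199.5 ± 7.45 ppm.

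Genes of both MHC classes were high without any added stimulus. Of 17 class I genes, all reached 10 ppm, and the list held 3.21 ± 0.119% of the coverage. After B2m, the common light chain, H2-D1 and H2-K1 came H2-T23, a non-classical molecule (1794 ± 94.3 ppm), Tapbp, the peptide-loading chaperone tapasin (1270 ± 233 ppm), and Calr, the chaperone calreticulin (862 ± 193 ppm). Nlrc5, the activator of class I genes, was near the low end with 47.4, 23.8 and 24.0 ppm. Of the 11 class II genes, 8 reached 10 ppm. H2-Ab1 measured 3297, 2786 and 3094 ppm, H2-Aa 2526, 1948 and 2087 ppm, and H2-Eb1 1586, 1217 and 1287 ppm: these encode the chains of the surface molecules I-A and I-E. The loading genes H2-DMb1, H2-DMa and H2-DMb2 measured 289 ± 16.9, 179.8 ± 15.5 and 90.9 ± 8.32 ppm, while H2-Oa, H2-Ob and H2-Eb2 had means of 10.2 ± 4.81, 2.36 ± 0.677 and 9.49 ± 5.59 ppm. Ciita, the master activator of class II genes, measured 53.8, 28.3 and 27.6 ppm. Together with Cd74 and Ciita, all 9 class II genes with a mean of at least 10 ppm were highest in untreated 7, against 57.7% of all such genes.

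Chemokines and osteopontin led the secreted factors. Of 39 genes 24 reached 10 ppm, and the median was 26.1 ppm. Ccl5, a chemokine for T cells and monocytes, measured 1445, 957 and 1317 ppm, and Ccl9, a macrophage chemokine, 756, 858 and 884 ppm. Spp1, osteopontin, measured 679.7 ± 76.3 ppm, Cxcl16, a membrane-bound chemokine and scavenger receptor, 622 ± 26.8 ppm, Tgfb1 479 ± 32.3 ppm and Ccl6 472.5 ± 87.9 ppm. The inflammatory cytokines were far lower: Il1b measured 50.4, 42.2 and 42.9 ppm, Tnf 34.8, 21.97 and 21.5 ppm, Il12b 40.6, 20.1 and 22 ppm and Il10, the anti-inflammatory cytokine, 5.82, 6.54 and 7.24 ppm. Il6 stayed at or below 1.56 ppm and Il12a, the partner chain of Il12b, at or below 0.247 ppm. Il23a, the other partner chain of Il12b, was at or below 0.108 ppm.

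Genes of the usual activation states ranged widely, from Saa3 at 486 ppm to Retnla at 0.116 ppm. Of 19 listed inflammatory activation genes, 11 reached 10 ppm (57.9%, median 21.6 ppm), with Saa3 (486 ± 241 ppm), Nfkbia, the inhibitor of NF-kB (143 ± 19.45 ppm), and Acod1 the highest. Nos2, which makes nitric oxide, measured 3.26, 0.768 and 0.685 ppm, and Ptgs2, the inducible cyclooxygenase, 4.55, 2.02 and 1.42 ppm. Of 20 alternative activation genes, 7 reached 10 ppm (35%, near the share of all ranked genes, with a median of 5.5 ppm): the chemokine gene Ccl22 (230.1 ± 140.5 ppm), Tgm2 (transglutaminase), Chil3, Il4ra (the interleukin-4 receptor), Mrc1, Clec10a (a lectin) and Socs2 (a cytokine signalling inhibitor). Chil3, a secreted lectin that granulocyte precursors also make, measured 113, 148 and 102 ppm. Arg1, the arginase by which such cells are known, stayed at or below 0.335 ppm, and Retnla, a secreted marker of the same state, at or below 0.19 ppm. Among 20 costimulatory and checkpoint genes, 9 reached 10 ppm in every library, led by Vsir (445 ± 66.6 ppm), Lgals9 (346.5 ± 56.1 ppm) and Cd47 (283 ± 10.3 ppm), which restrain T cells or phagocytes. Cd274, the gene for PD-L1, measured 143, 120.3 and 146 ppm and ranked 1199. Pdcd1, the gene for its receptor PD-1, was at or below 1.1 ppm.

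Interferon-stimulated genes were high without added interferon. All 30 reached 10 ppm, with a median of 189 ppm. Ifitm3 was followed by Lgals3bp, a secreted galectin-binding protein (1945 ± 231 ppm), Irf7, the regulator of type I interferon genes (1847, 1474 and 1669 ppm), and Bst2, tetherin, which holds budding virus (1462 ± 175 ppm). Ifit3 and Ifit2, antiviral proteins that act on foreign RNA, measured 884 ± 139 and 564 ± 102 ppm. The libraries had an order here: 28 of the 30 were highest in untreated 7 and 29 were lowest in untreated 8, against 57.7% and 33.6% of all genes with a mean of at least 10 ppm. Isg15, a ubiquitin-like modifier, showed it with 739, 406.5 and 491 ppm. The exceptions to the first count were Rtp4, a chaperone of receptor transport (472, 534 and 603 ppm), and Ifi44 (90.3, 83.4 and 97.7 ppm).

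**Figure D4:**
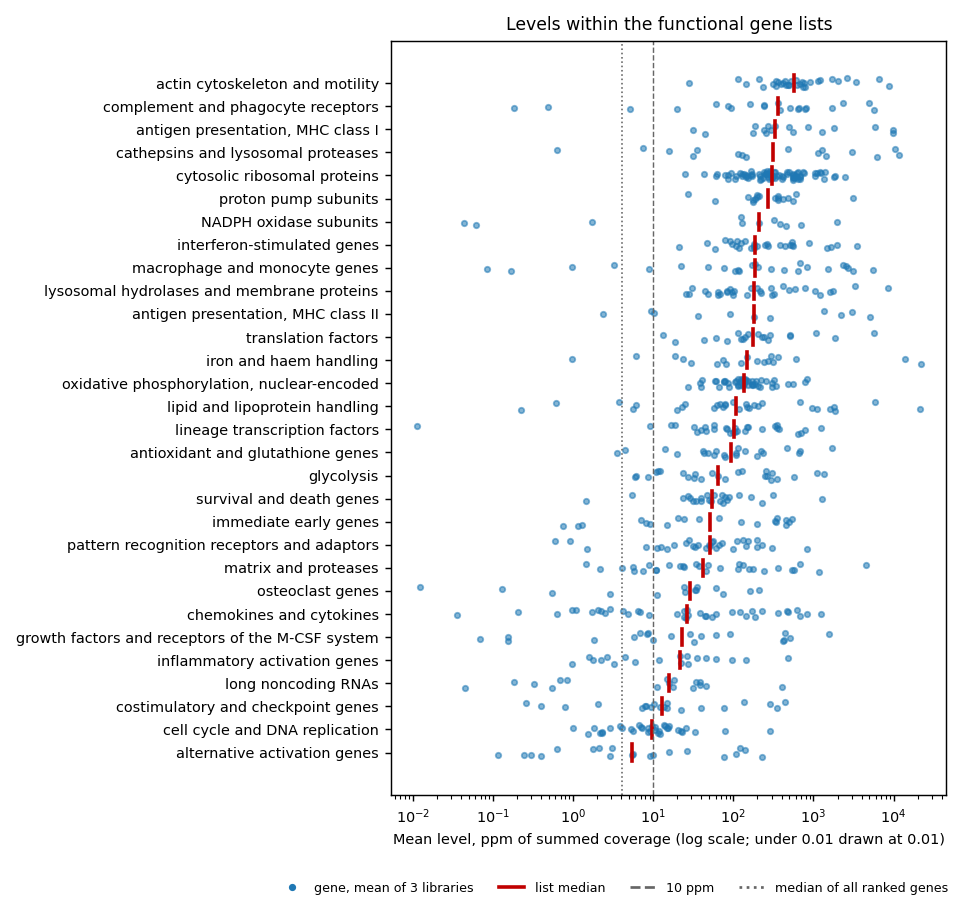
Mean level of each listed gene in ppm of summed coverage (horizontal axis, log scale) in the 3 untreated libraries, by functional list, with list medians as red bars, 10 ppm dashed and the median of all ranked genes (4.1 ppm) dotted. Lists are ordered by median, from actin cytoskeleton and motility at 567 ppm to alternative activation genes at 5.5 ppm.

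The machinery of protein making and shape was read from nearly every gene listed. All 79 cytosolic ribosomal protein genes reached 10 ppm and held 3.68 ± 0.152% of the coverage. Their means spanned 97.5-fold, from Rps15a (22.8, 26.5 and 26.4 ppm) to Rpl41 (2421, 2634 and 2329.9 ppm), and the quartiles were 169 and 580 ppm. Ribosomal proteins are needed in equal numbers, but their genes have many processed copies in the genome, and how the authors assigned reads that match several places is not given in the sources used here, so single levels are uncertain. Among 20 translation factor genes, Eef1a1 was followed by Eef2, which moves the ribosome (1857 ± 95.9 ppm), and Tpt1 (1085 ± 67.1 ppm), a growth-related protein. All 32 actin genes reached 10 ppm and 31 reached 100 ppm (7.7% of all ranked genes did), with the highest median of the functional lists, 567 ppm. Vim, the filament protein vimentin (2649 ± 200.3 ppm), Actg1 (2035 ± 244 ppm) and Cfl1, which severs filaments (1710 ± 189 ppm), followed Tmsb4x, Actb and Pfn1. Ezr, a linker of actin to the membrane, was the lowest with 41.7, 21.4 and 21.5 ppm.

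Energy genes stood above the general level, with list medians over the 4.1 ppm of all ranked genes. All 48 nuclear-encoded genes of oxidative phosphorylation reached 10 ppm, with a median of 135 ppm and a sum of 0.896 ± 0.00314% of the coverage, among the steadiest sums of any list. Cox6a1 (835 ± 36.1 ppm), Cox4i1 (790 ± 45.9 ppm) and Cox8a (557 ± 42.8 ppm), subunits of cytochrome c oxidase, were the highest. Of 25 glycolysis genes, 20 reached 10 ppm and the median was 64.0 ppm. Pkm, pyruvate kinase, measured 1671, 1183 and 1166 ppm, Aldoa, aldolase, 1313, 1018 and 980.3 ppm, and Ldha, lactate dehydrogenase, 612, 566 and 558 ppm. Untreated 7 was the highest for 19 of the 22 members with a mean of at least 10 ppm, against 57.7% of all such genes. Gapdh, often taken as a reference gene, measured 294 ± 37.7 ppm, a value made uncertain by its many pseudogenes. The NADPH oxidase, which makes superoxide in the phagosome, had both membrane subunits, Cyba (1967 ± 120 ppm) and Cybb (709 ± 56.1 ppm), and the cytosolic Ncf1 and Ncf4 (454 ± 11.15 and 323 ± 88.0 ppm), with Rac1 (379 ± 31.3 ppm), Rac2 (209 ± 9.33 ppm) and the proton channel Hvcn1 (130 ± 20.9 ppm). Nox1, Nox4 and Duox2, oxidases of other tissues, were at or below 2.38 ppm. Among 22 antioxidant genes 20 reached 10 ppm, led by Gpx1, glutathione peroxidase (1699 ± 45.8 ppm), Prdx1 (675 ± 51.6 ppm) and Prdx5 (652.5 ± 40.9 ppm), peroxiredoxins.

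Genes of division stood near the general level, apart from Pcna. Of 35 cell cycle and replication genes, 12 reached 10 ppm (34.3%, near the 38.3% of all ranked genes), and the median was 9.67 ppm (4.1 ppm for all ranked genes). Pcna, the sliding clamp of replication, stood alone at 304, 302 and 268 ppm, followed by Stmn1, a regulator of microtubules, at 60.4, 102.2 and 71.5 ppm. Mki67, the proliferation marker Ki-67, measured 7.75, 4.6 and 4.35 ppm, and Bub1, a checkpoint kinase, was the lowest with 0.783, 1.24 and 0.986 ppm. Of 24 survival and death genes, 22 reached 10 ppm. Mcl1, the survival protein on which myeloid cells rely, measured 1171, 1358.5 and 1358 ppm. Its relative Bcl2l1 measured 78.2 ± 6.05 ppm, and Bcl2 2.04, 1.1 and 1.22 ppm, so the mean ratio of Mcl1 to Bcl2 was 974 ± 352. On the side of death, Bax (312 ± 5.86 ppm) and Gsdmd, the pore protein of pyroptosis (164 ± 28.6 ppm), were the highest.

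Matrix, osteoclast, early response and noncoding genes completed the lists. Of 30 matrix and protease genes 21 reached 10 ppm: Cst3 led, followed by Cstb, a cytosolic cathepsin inhibitor (1181 ± 106 ppm), and Spp1. Mmp12, the macrophage elastase, was the highest metalloproteinase listed with 197, 139 and 134 ppm. Among 14 osteoclast genes 9 reached 10 ppm. Atp6v0d2, a pump subunit of fused cells, measured 180, 226 and 218 ppm, but Acp5 (33.4 ± 3.78 ppm) and Ctsk (35.6 ± 1.41 ppm), the enzymes by which osteoclasts are known, were lower, and Calcr, the calcitonin receptor, did not exceed 0.0323 ppm. Of 20 immediate early genes 14 reached 10 ppm, led by Atf3 (536 ± 45.55 ppm), Jund (496.5 ± 76.0 ppm), Zfp36, which destabilises cytokine mRNA (458 ± 47.9 ppm), and Junb (454 ± 64.0 ppm). Fos measured 253, 182 and 162 ppm, and Egr1 8.86, 6.96 and 5.28 ppm. Of the 17 long noncoding RNAs found, 11 reached 10 ppm. Malat1, a nuclear RNA, was the highest with 633, 288 and 302 ppm, and Snhg3, a host gene of small nucleolar RNA, was lower in untreated 7 (32.3, 48.9 and 56.8 ppm).

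Markers of other cell types were checked for what else the wells could hold. For T cells, NK cells and stromal cells, 0 of 11, 0 of 9 and 0 of 13 found genes reached 10 ppm in every library. Cd4 did so without untreated 7, and the matrix proteoglycan gene Bgn of the stromal list did so without untreated 9. The summed level of the T cell list was 0.00141 to 0.00218% of the coverage, and that of the NK list 0.00044 to 0.000708%. Cd3e, a chain of the T cell receptor complex, measured 1.28, 1.24 and 0.9 ppm, while Cd4, which some mononuclear phagocytes also carry, measured 5.74, 12.2 and 11.9 ppm. For B cells, Cd79b, a chain of the B cell receptor, measured 11.5, 13.1 and 7.02 ppm. Sdc1, a proteoglycan in the B and plasma cell list, measured 253, 93.9 and 101 ppm, the one member to reach 10 ppm in every library. Alpha globin was low, Hba-a1 measuring 22.3, 25.5 and 23.6 ppm with reads that its twin Hba-a2 may share.

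Several granulocyte genes were high. Of 17 neutrophil and granulocyte precursor genes 11 reached 10 ppm, and the list summed to 0.194, 0.242 and 0.196% of the coverage. S100a9 and S100a8, the calcium-binding proteins of neutrophils and monocytes, measured 693, 950.2 and 762 ppm and 373, 511 and 430.1 ppm. Ngp, a neutrophil granule protein, measured 333, 398 and 307 ppm, Ltf, lactoferrin of the granules, 96.1, 107 and 79.5 ppm, and Lcn2, a carrier of bacterial siderophores, 126, 125 and 101 ppm. The granule genes of earlier stages were lower, with Mpo, myeloperoxidase, at 17.9, 17.5 and 14.2 ppm and Elane, neutrophil elastase, at 5.14, 8.41 and 5.62 ppm. Ly6g, the surface marker of mature neutrophils, was at or below 0.845 ppm. S100a9, Ngp and Ltf were all highest in untreated 8. Of the 11 members with a mean of at least 10 ppm, 7 were highest in untreated 8. The other 4, Lcn2 and Mpo among them, were highest in untreated 7, where 57.7% of all such genes were. Prss34 (59.4 ± 10.8 ppm), a protease of basophils and mast cells, and Prg2 (51.7 ± 7.56 ppm), of eosinophil granules, led their list, in which 3 of 16 genes reached 10 ppm. In the megakaryocyte list 4 of 10 did, led by Pf4, a platelet chemokine that macrophages also make (273, 418 and 398 ppm).

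The dendritic cell, progenitor and endothelial lists summed higher in untreated 7, as did the B and plasma cell list through Sdc1. The dendritic cell list of 13 genes summed to 0.321% of the coverage in untreated 7 and 0.209% and 0.214% in untreated 8 and 9. Ccr7, the receptor that guides cells to lymph nodes, measured 593, 288 and 272 ppm, Fscn1, an actin bundler of mature dendritic cells, 500.1, 277 and 261 ppm, and Ccl22 392, 156 and 142.5 ppm. Bst2, the highest of the list, is also an interferon-stimulated gene. The defining genes were low: Flt3, the growth factor receptor of these cells, measured 12.03, 6.5 and 6.24 ppm, Zbtb46, their transcription factor, 5.78, 3.06 and 2.52 ppm, and Xcr1 and Clec9a, of the cross-presenting subset, were at or below 1.69 ppm. The progenitor list of 10 genes summed to 0.124, 0.0435 and 0.0458%, which was mostly Ly6a, while Cd34 measured 12.6, 2.31 and 2.43 ppm and Kit, the stem cell factor receptor, 9.63, 5.74 and 4.87 ppm. The endothelial list of 10 genes summed to 94.0, 51.4 and 44.0 ppm, with 2 genes at 10 ppm in every library. Kdr, a receptor for vascular growth factor, measured 40.8, 13.4 and 14.2 ppm and Vwf, a clotting protein that platelets also hold, 27.2, 10.6 and 8.45 ppm, while Pecam1, which leukocytes carry too, measured 15.04, 17.6 and 17.7 ppm. The defining genes Cdh5 and Tek were at or below 2.61 ppm. The part of other cells in the levels of untreated 7 was not tested.

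**Figure D5:**
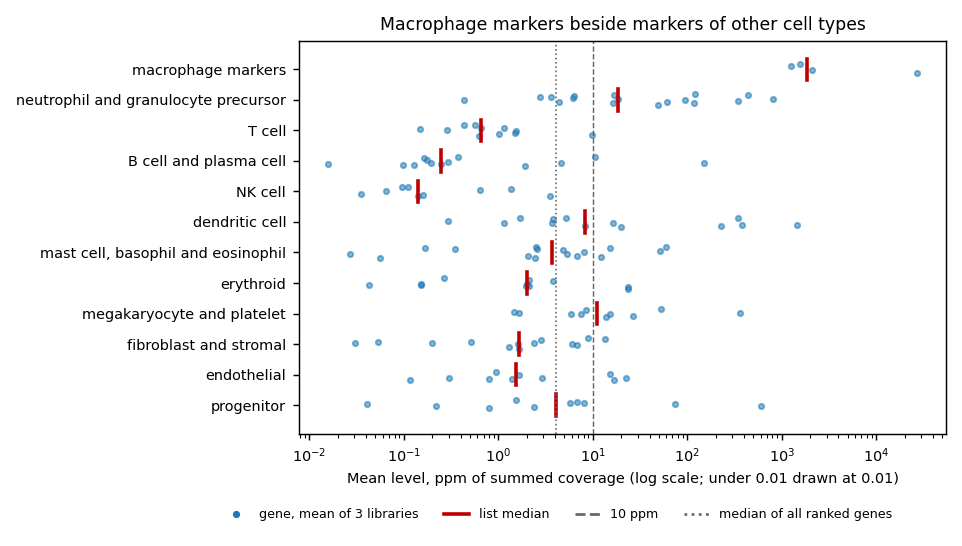
Mean level in ppm of summed coverage (horizontal axis, log scale) of the 4 macrophage markers and of markers of other cell types in the 3 untreated libraries, with medians as red bars, 10 ppm dashed and the median of all ranked genes (4.1 ppm) dotted. Macrophage markers lie above 1000 ppm, while T cell and NK cell genes lie below 10 ppm and some granulocyte genes, such as S100a9 (802 ppm), lie above 100 ppm.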

How the data were processed

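Poly(A)-selected RNA of 3 untreated wells was sequenced in pairs of 150-base reads, and the authors deposited a report per library listing RefSeq transcripts with their average coverage (signal per exonic base), total exon length, read counts over the genomic span, and percentages of GC and of bases covered (percent values, per the file headers). Partek and STAR are named in the submitters' processing notes, with versions and the genome build not given in the sources used here; transcript positions match RefSeq GRCm38. Transcripts without exonic coverage are not listed and were taken as 0.

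For each gene symbol the transcript with the most exonic reads (coverage times exon length over 150) was kept, symbols under 200 exonic bases were left out (680), and coverage was divided by its sum over the library and multiplied by 1000000 (ppm). Libraries were summarised as mean ± SD (n = 3), with no test. The deposited count values served only for the exonic share of reads over gene spans, and the deposited percent values only for GC and covered bases. The scaling to ppm and the 2-fold counts were tested on counts simulated from the levels of these libraries. The choice of transcript and the assignment of reads to overlapping or near-identical symbols were not tested there. Without molecular identifiers, PCR copies are counted as reads.

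Genes named were the 30 highest, the 4 markers and their neighbours in rank, the 2 to 6 highest of each of the 42 gene lists and lowest members, every member of lists of at most 12, the 8 most variable and the 5 steadiest genes at or above 50 ppm. A few genes that this rule takes are not reported here. Others, named for a known role, were chosen after their values were seen. The members and lists were chosen with earlier results of these data known. Alternatives were other transcripts per symbol, totals and length scalings, TMM factors from edgeR 4.0.16 (R 4.3.3), and leaving out each library. Python 3.11.15, pandas 2.3.3, numpy 2.4.6 and matplotlib 3.10.9 were used.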

Additional observations from a re-analysis of the deposited data

How the results depend on the processing

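No paired analysis was possible because no group was compared and the result comes from no test. The number of genes at or above 1, 10 and 100 ppm stayed within 1.5 times its value under every alternative run. Leaving out 1 library at a time gave 11525 to 11619 genes at 1 ppm, 7647 to 7681 at 10 ppm and 1552 to 1616 at 100 ppm, and shares of 14.2 to 15.6% and 36.0 to 37.8% for the 10 and 100 highest genes. Without division by exon length those shares were 10.6% and 28.1%. The number of genes with a mean of at least 10 ppm and a 2-fold range, 215 (2.7%), was 1 without untreated 7 and 183 and 191 without untreated 9 and 8. The markers moved with the scale: not divided by length, Lyz2 measured 13184, Cd68 1203, Csf1r 2778 and Adgre1 1870.2 reads per 1000000, so Csf1r and Adgre1 then exceeded Cd68. With the 10 highest genes left out of the total they measured 31819, 2467, 1832.5 and 1471 ppm, and Cd68 averaged over its transcripts 1835 ppm. Leaving out 1 library gave 26043 to 29121 ppm for Lyz2, 2029.9 to 2147 for Cd68, 1509 to 1607 for Csf1r and 1214 to 1329 for Adgre1. Of 668 named levels, 483 moved by more than 1 SD with that total, 56 with the transcript of highest coverage and 0 with TMM factors (0.974 to 1.045). The changed total and the TMM factors rescale all genes of a library alike. Whether a level moved with that total depended on its SD, and TMM factors on both sides of 1 could hardly move a mean. Their counts do not measure how firm the level of a gene is. Leaving out H2-L, Gm1821, Atp6v0c-ps2 and Rn45s, a ribosomal RNA at rank 49, an alternative chosen after seeing the data, gave 92 genes at 1000 ppm in place of 94, and 1.5-fold in place of 2-fold gave 504 genes with untreated 7 above both others and 107 below.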

Other observations

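Coverage was spread unevenly over the chromosomes. Chromosome 7, which carries Ftl1, Apoe and Ctsd, held 12.6 ± 0.738% of the coverage with 8.45% of the ranked genes, and chromosome 17, which carries the MHC genes and Adgre1, held 8.53 ± 0.299% with 5.09%. The coverage of chromosome 17 includes the near copies H2-L and Atp6v0c-ps2 and the ribosomal RNA Rn45s. Chromosome 10, which carries Lyz2 and Psap, held 7.62 ± 0.24% with 4.8% of the genes, while chromosome 13 held 2.16 ± 0.0242% with 3.84%.

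Lyz1, the Paneth cell lysozyme that lies beside Lyz2, was far lower: the ratio of Lyz2 to Lyz1 was 236, 339.7 and 344, and reads of these near copies may be shared. Xist, the RNA of the inactive X chromosome, measured 45.0, 18.7 and 23.1 ppm, while of the Y-linked genes Ddx3y, Uty, Kdm5d and Eif2s3y 0 of 4 were listed in any untreated library. These genes were looked up after other values were seen, and the labels used here do not give the sex of the mice.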
